A study of Mus musculus with 12 samples.

Results

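The genes described here are Nqo1, Hmox1, Gclm, Gclc, Gsr, Txnrd1, Srxn1, Slc7a11, Nfe2l2 and Keap1, a panel of antioxidant genes known as targets of the transcription factor NRF2, together with NRF2 itself (gene Nfe2l2) and its inhibitor KEAP1. They were taken by name and not by a filter on measured values, but with earlier results of these data known. All 10 were found among the 54100 features listed in all 12 libraries. The series concerns CK1α, a kinase encoded by Csnk1a1, and how it bears on cGAS-STING, the pathway that senses DNA in the cytosol. RNA was sequenced from mouse cells in 6 groups of 2 libraries, all labelled C57BL/6J, in 3 separate sets of cells. In the first set, the CK1α-activating compound SSTC3 was compared with DMSO, a common solvent control, in cells labelled BMDM, bone marrow-derived macrophages. Every library of that set has its own knockout name, TREX1-KO and TREX2-KO with SSTC3 and TREX3-KO and TREX4-KO with DMSO. The labels do not say whether these names stand for different genotypes or for 1 knockout; if they differ, genotype and treatment cannot be told apart. The second set is labelled MEF, mouse embryonic fibroblasts, and compares CK1a overexpression (CK1a_OE) with its control (OE_control). The third set, also labelled MEF, compares CK1a knockdown (CK1a_KD), by siRNA according to the titles, with its control (KD_control). Doses, exposure times and constructs are not stated, and nothing says that the replicates came from separate cultures, so p-values here reflect library-to-library spread alone, and that spread may be technical.

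NRF2 is a transcription factor whose amount is set mainly by protein breakdown. KEAP1 holds it in the cytoplasm and presents it to a ubiquitin ligase built on CUL3, and oxidants or electrophiles that modify cysteines of KEAP1 let NRF2 escape into the nucleus. There it pairs with a small Maf protein and binds antioxidant response elements near genes for glutathione and thioredoxin metabolism, detoxification and haem breakdown, while BACH1 competes for the same elements. Some members are also known to answer to other factors, such as Slc7a11 to ATF4 and Hmox1 to AP-1 and heat shock factor.

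Library totals ran from 16063627 to 19427506 counts, and counts of the 10 genes from 103 for Nqo1 to 11034 for Txnrd1, so that all 10 passed the filter on low counts in all 3 comparisons. The BMDM label was not borne out by macrophage markers. Together, the 21 markers of that type reached 10.7 to 14.2 CPM (each gene's count scaled to the total of its library) in those libraries, with 10 to 14 of them at 0, Adgre1 and Itgam in all of them. The 14 fibroblast markers reached 5730 to 7221 CPM in the same libraries. In the overexpression set the sums were 21.2 to 23.6 and 2291 to 2485 CPM, and in the knockdown set 270.2 to 326 and 1048 to 1202 CPM, macrophage markers first. In the same order, 8 to 13 and 2 to 3 markers were at 0 in the overexpression set, and 6 to 7 and 3 to 4 in the knockdown set. The mean level of Csnk1a1 was 170.3 CPM where it was knocked down and 340 CPM in KD_control (log2 fold change −0.96 ± 0.05, SE, adjusted p = 2.88e-27 by edgeR's quasi-likelihood test with Benjamini-Hochberg adjustment over all genes tested, as for every adjusted p unless another tool is named). It was 237 and 236 CPM in the libraries labelled CK1a_OE and OE_control (−0.01 ± 0.04, adjusted p = 0.901), so a gain of Csnk1a1 RNA was not detected and CK1a_OE stands here for the label alone. In these bulk libraries, fewer cells of a type and less RNA per cell cannot be told apart.

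Promoter sequences are shown for the 5 members whose windows held a match upstream of the start site, to show which elements those are. RefSeq windows (build GRCm38.p6, the assembly of mm10) from 250 bases before to 50 after a start site were found for 7 members (all but Hmox1, Gclc and Gsr) in 9 windows. Both strands were searched for the core of the antioxidant response element (TGACNNNGC), the AP-1 site (TGANTCA, which reads the same on both strands) and the core of the ATF4 element (TGATGNAA). An AP-1 site with C at its open position, followed by GC, would match the first 2 of these motifs at once. Capitals mark the matches in these stretches upstream of the start site, each written 5′ to 3′ on the strand of its gene.
Srxn1: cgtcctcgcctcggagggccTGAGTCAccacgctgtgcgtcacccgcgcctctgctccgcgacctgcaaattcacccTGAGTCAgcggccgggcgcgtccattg
Slc7a11: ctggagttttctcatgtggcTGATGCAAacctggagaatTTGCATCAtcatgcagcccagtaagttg
Gclm: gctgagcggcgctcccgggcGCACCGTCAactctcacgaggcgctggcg
Txnrd1: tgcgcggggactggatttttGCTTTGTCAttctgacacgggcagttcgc
Nfe2l2: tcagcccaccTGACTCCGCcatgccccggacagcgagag

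The Srxn1 stretch (chr2:152105402-152105505, plus strand) holds 2 AP-1 sites, beginning 102 and 45 bases before the start site, and the nearer one is followed by GC, a form (TGANTCAGC) found in 1.19% of all 32851 windows. AP-1 sites of any kind were in 7.81% of windows. Slc7a11 (chr3:50443633-50443699, minus strand) has 2 ATF4 element cores facing each other, 66 and 47 bases before its start, where 3.97% of windows hold at least 1. The antioxidant response element core was matched in 4 of the 9 member windows, against 12.4% of all windows. It begins 134 bases before the start in Gclm (chr3:122245403-122245451, plus strand), 92 bases before 1 of the starts of Txnrd1 (chr10:82859094-82859142, plus strand), and 240 bases before that of Nfe2l2 (chr2:75704875-75704913, minus strand), and in Srxn1 it lies after the start site. The Srxn1 AP-1 site followed by GC differs from this core only in having G in place of its first C, so it was not counted as a match to the core. The Nqo1 and Keap1 windows held no match to any of these motifs, and bases outside the windows were not searched. These matches describe the windows and do not show that a factor binds there.

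The knockdown comparison addresses the loss of the kinase. The panel moved as a block, with the regulator and its targets apart: all 8 enzyme and transporter genes rose, Keap1 rose with them, and Nfe2l2 fell. Fitted rises of the 8 ran from 1.18-fold for Hmox1 to 2.15-fold for Gsr, and Nfe2l2 fell to 0.559 times its control level. That makes 9 members higher and 1 lower, where 54.7% of the 14832 genes tested passed, with 28.3% of those tested higher and 26.4% lower. The median log2 fold change was 0.77 over the 10 genes and −0.01 over all genes tested. The macrophage marker sum, mostly Cd68, was 324 to 326 CPM with knockdown and 270.2 to 277 CPM in the controls, and the fibroblast sum 1048 to 1057 and 1176 to 1202 CPM; their part in these changes was not tested.

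Nfe2l2 (chromosome 2, 75675513 to 75704641, minus strand) had 75.3 and 74.7 CPM in the knockdown libraries, against 128 and 146 CPM in their controls. The groups were clearly apart, and the fitted log2 fold change was −0.84 ± 0.06 (SE, n = 2 per group, adjusted p = 3.41e-19). Keap1 (chromosome 9, 21229730 to 21239361, minus strand), which encodes the adaptor that sends NRF2 to degradation, moved the other way. It had 79.8 and 81.2 CPM against 45.3 and 42.6 CPM, a log2 fold change of 0.91 ± 0.07 (adjusted p = 7.24e-18). An antisense gene, Gm16754, shares 510 exonic bases with Keap1, or 10.9% of them. Its own counts were 97 and 95 with knockdown and 24 and 51 in the controls, against 1544 and 1550 and 727 and 760 for Keap1, and since the strand setting of the counting is not given, reads of the pair cannot be told apart.

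Both subunits of glutamate-cysteine ligase, the first enzyme of glutathione synthesis, rose with knockdown. Gclm (chromosome 3, 122245557 to 122270732, plus strand), the modifier subunit, had 108 and 94.2 CPM against 50.7 and 54.2 CPM, and Gclc (chromosome 9, 77754535 to 77794485, plus strand), the catalytic subunit, had 106 and 94.4 against 79.5 and 76.1 CPM. Their log2 fold changes were 0.98 ± 0.07 for Gclm (adjusted p = 1.06e-19) and 0.40 ± 0.06 for Gclc (adjusted p = 1.12e-07), so the modifier gained more. Gclm shares 244 exonic bases with a pseudogene that had 0 counts in all libraries, and 296 with a transcript of the opposite strand that had 6 to 26. Slc7a11 (chromosome 3, 49892526 to 50443614, minus strand), the cystine importer that supplies cysteine for glutathione, had 43.6 and 39.3 CPM against 20.9 and 24.9 CPM, with a log2 fold change of 0.89 ± 0.09 (adjusted p = 2.44e-12). Gsr (chromosome 8, 33652523 to 33698163, plus strand), glutathione reductase, which regenerates reduced glutathione, rose the most of the panel. It had 91.3 and 89.9 CPM against 40.0 and 46.1 CPM, and its change was 1.11 ± 0.07 (adjusted p = 1.21e-21).

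In the thioredoxin branch, Txnrd1 (chromosome 10, 82833951 to 82897712, plus strand), the cytosolic thioredoxin reductase, had 568 and 578 CPM with knockdown against 335 and 341 CPM. Srxn1 (chromosome 2, 152105516 to 152111376, plus strand), sulfiredoxin, which repairs overoxidised peroxiredoxins, had 330.3 and 339 against 221 and 213 CPM. Their log2 fold changes were 0.79 ± 0.04 (Txnrd1, adjusted p = 1.49e-25) and 0.66 ± 0.05 (Srxn1, adjusted p = 2.94e-20). The smallest rise of the panel was in Hmox1 (chromosome 8, 75093621 to 75100589, plus strand), haem oxygenase 1, which breaks haem down to biliverdin, iron and carbon monoxide. Hmox1 had 118 and 122 CPM against 100.4 and 107 CPM, a change of 0.24 ± 0.06 (adjusted p = 0.000218). Nqo1 (chromosome 8, 107388225 to 107403206, minus strand), the quinone reductase often read as the marker of NRF2 activity, was the lowest in counts. It had 10.4 and 9.99 CPM against 6.66 and 5.77 CPM, from 103 and 107 counts in the controls, and rose by 0.75 ± 0.17 (adjusted p = 0.000105).

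**Figure D1:**
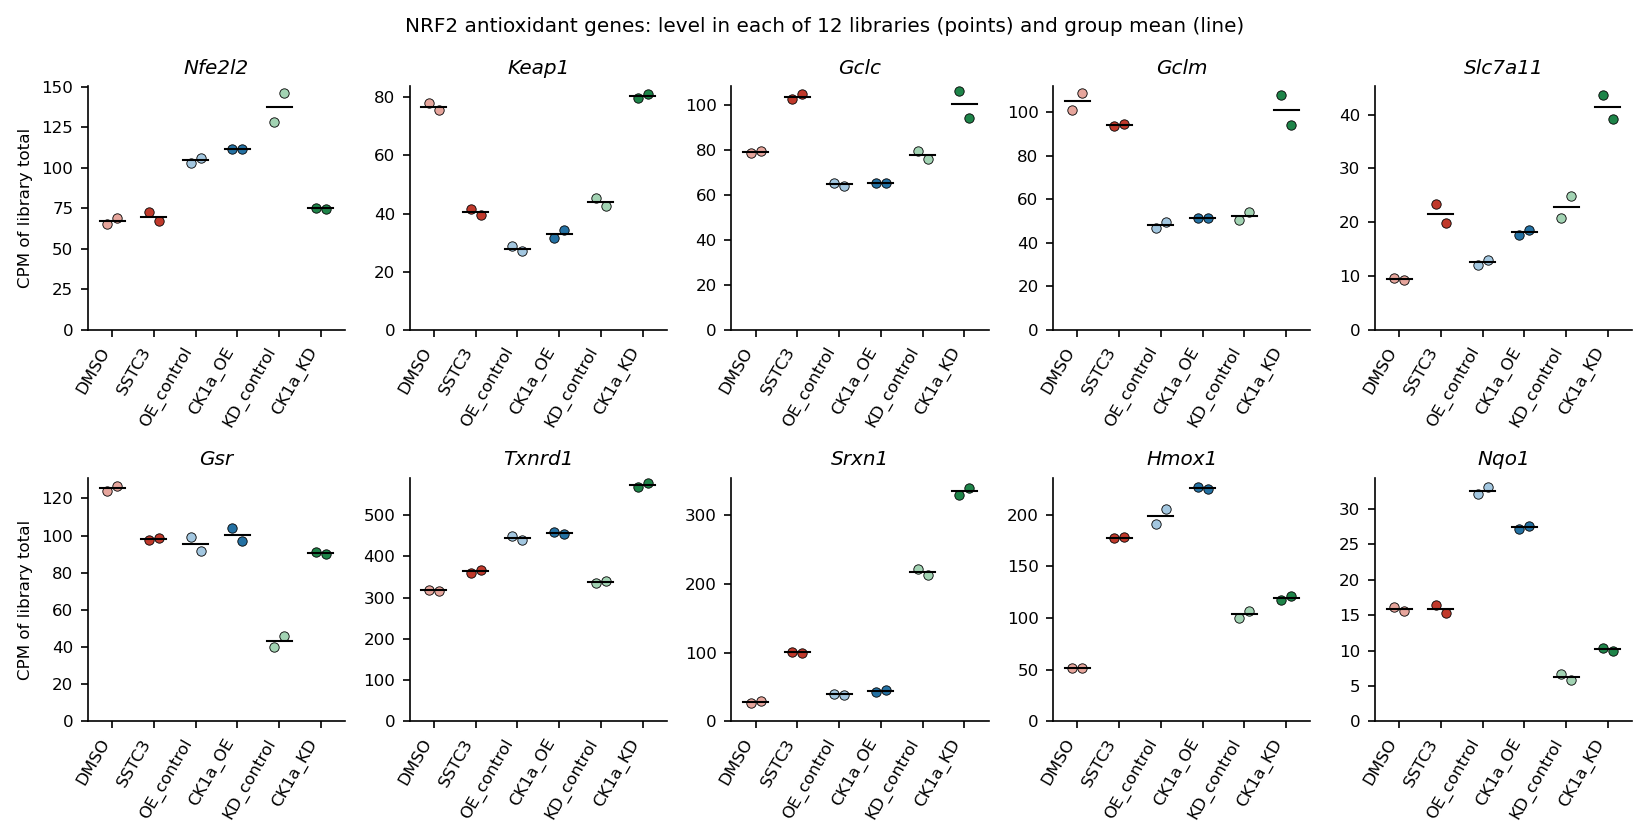
Level of each of the 10 genes in CPM of the library total (linear axis from 0) in the 6 groups, with 1 point per library and a line at the mean of 2 libraries. Knockdown libraries (dark green) lie above their controls for 9 genes and below them for Nfe2l2, and SSTC3 libraries (dark red) lie far above DMSO for Hmox1, Srxn1 and Slc7a11.

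The SSTC3 comparison addresses pharmacological activation of the kinase. Here the panel did not move together. Srxn1 and Hmox1 rose 3.72-fold and 3.59-fold and Slc7a11 rose 2.37-fold by the fit, Gclc and Txnrd1 rose by less, Keap1 and Gsr fell, and Nfe2l2, Gclm and Nqo1 did not pass. That is 5 members higher and 2 lower of 10, where 53.6% of 14151 genes passed, 27.1% higher and 26.5% lower, so the count alone is near the background. The median log2 fold change of the 10 was 0.18, against 0.01 over all genes tested. The fibroblast marker sum was 5730 to 5823 CPM with SSTC3 and 6966 to 7221 CPM with DMSO, and the macrophage sum 13.7 to 14.2 and 10.7 to 10.9 CPM; their part in these changes was not tested.

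Hmox1 had 177.2 and 178.4 CPM with SSTC3 and 51.5 and 51.4 CPM with DMSO, replicates that nearly coincide within each group. Its log2 fold change was 1.84 ± 0.06 (SE, n = 2 per group, adjusted p = 4.29e-93). Srxn1 had 101 and 99.4 CPM against 26.7 and 29.4 CPM, with a log2 fold change of 1.89 ± 0.07 (adjusted p = 4.59e-76). For Slc7a11 the values were 23.3 and 19.8 against 9.68 and 9.20 CPM, with a larger gap between the SSTC3 replicates but no overlap, and the change was 1.25 ± 0.12 (adjusted p = 6.56e-19). The other 2 rises were smaller. Gclc had 103 and 105 CPM against 78.5 and 79.6 CPM (0.45 ± 0.06, adjusted p = 9.52e-13), and Txnrd1 had 361 and 366 against 319 and 316 CPM (0.25 ± 0.04, adjusted p = 2.38e-09).

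Keap1 was lower with SSTC3, at 41.5 and 39.7 CPM against 78.1 and 75.5 CPM, a log2 fold change of −0.87 ± 0.07 (adjusted p = 1.15e-27). Its antisense neighbour Gm16754 had 21 and 23 counts with SSTC3 and 51 and 31 with DMSO. Glutathione reductase was lower too: Gsr had 97.4 and 98.9 CPM against 124 and 127 CPM (−0.30 ± 0.05, adjusted p = 1.93e-07). Nfe2l2 itself had 72.6 and 66.9 against 65.2 and 69.3 CPM, values that overlap, and its fitted change of 0.11 ± 0.06 did not pass (adjusted p = 0.141). Nqo1 also overlapped, with 16.4 and 15.2 CPM against 16.1 and 15.6 CPM (0.05 ± 0.12, adjusted p = 0.732). Gclm had 93.6 and 94.8 CPM against 101 and 109 CPM (−0.10 ± 0.05, adjusted p = 0.108). The groups did not overlap for Gclm, and with library totals in place of TMM factors it was called lower (−0.16, adjusted p = 0.0103), as it was without DMSO replicate 1 (−0.16, adjusted p = 0.0294).

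**Figure D2:**
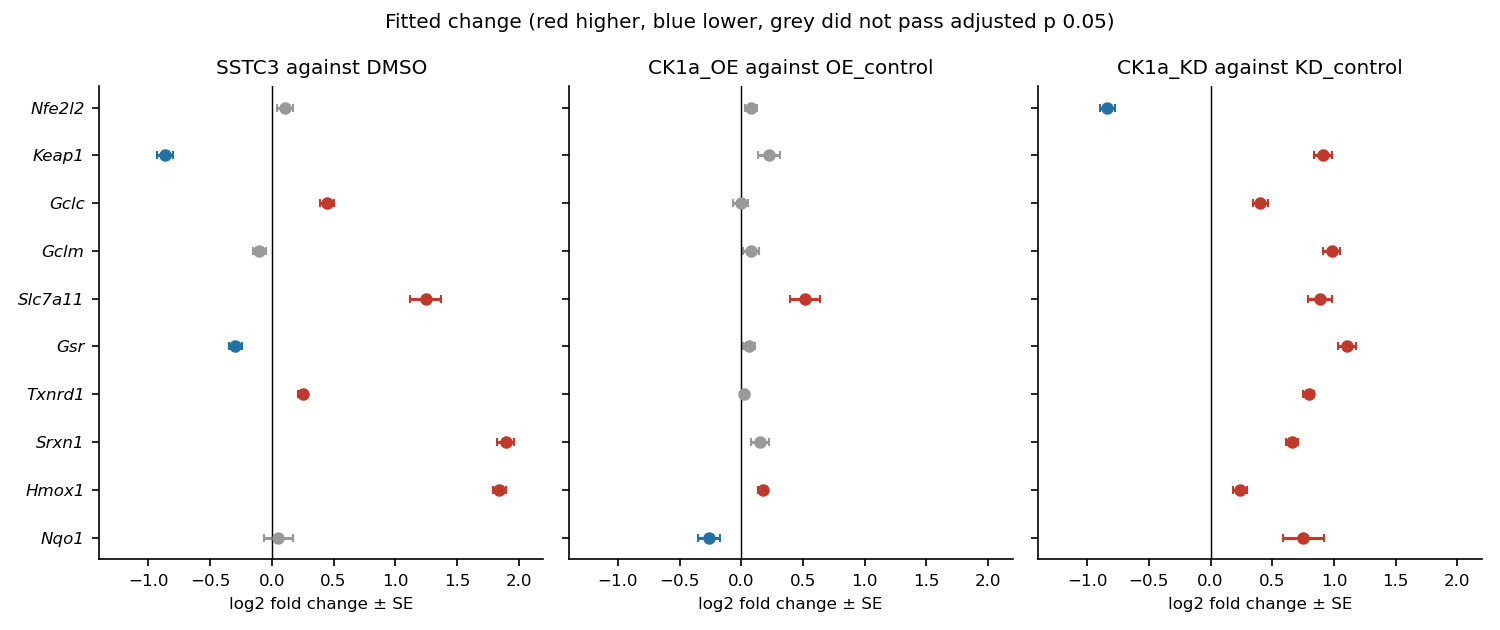
Fitted log2 fold change ± SE of each gene in the 3 comparisons, with zero marked by the vertical line; red points were higher and blue points lower at an adjusted p under 0.05, and grey points did not pass. Knockdown gave 9 red points and a blue one for Nfe2l2, SSTC3 gave 5 red and 2 blue, and overexpression gave 2 red and 1 blue.

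The overexpression comparison addresses a gain of the kinase, with groups taken from their labels since no change in Csnk1a1 was detected. Its differences in the panel were small: 2 genes rose, 1 fell and 7 did not pass, where 13.3% of 13958 genes passed, 5.78% higher and 7.57% lower. Slc7a11 had 17.7 and 18.6 CPM in the libraries labelled CK1a_OE against 12.005 and 13.1 CPM in their controls (log2 fold change 0.52 ± 0.12, SE, adjusted p = 0.00224). Hmox1 had 227 and 225 against 192 and 206 CPM (0.17 ± 0.04, adjusted p = 0.000994). Nqo1 moved the other way, with 27.2 and 27.5 CPM against 32.0 and 33.0 CPM (−0.26 ± 0.09, adjusted p = 0.0394). For these 3 genes the groups did not overlap, but neither did they for Keap1, Srxn1, Nfe2l2, Gclm and Txnrd1, which did not pass. The share of all genes without overlap was not computed, so nothing is read from the lack of overlap. The 3 calls are also fragile. Nqo1 did not pass when any 1 of the 4 libraries was left out (adjusted p = 0.1 to 0.179), Hmox1 lost its call in the absence of OE_control replicate 1 (0.12, adjusted p = 0.0941), and Slc7a11 did not pass with DESeq2 (0.52, adjusted p = 0.0641).

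Of the remaining 7, Keap1 had 31.7 and 34.3 CPM against 28.9 and 27.0 CPM (0.22 ± 0.09, adjusted p = 0.0898), and Srxn1 had 42.8 and 45.2 against 40.0 and 38.5 CPM (0.15 ± 0.08, adjusted p = 0.192). Nfe2l2 had 111.4 and 112 against 103 and 106 CPM (0.08 ± 0.05, adjusted p = 0.292). Gclm, Gsr, Txnrd1 and Gclc had fitted log2 fold changes of 0.08, 0.06, 0.03 and −0.005, with SE of 0.07, 0.05, 0.03 and 0.06. The fibroblast marker sum was 2291 to 2317 CPM in the libraries labelled CK1a_OE and 2452 to 2485 CPM in the controls, and its part was not tested.

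The changes were then compared between the 3 sets, which share no library, as differences of log2 fold changes in a single fit of all 12 libraries. Each treatment has its own set of cells, so in all these differences treatment and cell set cannot be told apart. SSTC3 and knockdown differed for 9 of the 10 genes, where 45.1% of 17105 genes differed. The differences of the regulators Keap1 and Nfe2l2 had opposite signs, although the SSTC3 change of Nfe2l2 did not itself pass. For Keap1 the SSTC3 change minus the knockdown change was −1.75 ± 0.10 (adjusted p = 1.34e-28), and for Nfe2l2 it was 0.98 ± 0.08 (adjusted p = 5.37e-18). The rise was larger in the SSTC3 comparison for Hmox1 (difference 1.63 ± 0.07, adjusted p = 1.24e-35) and Srxn1 (1.26 ± 0.08, adjusted p = 1.03e-26). The change with knockdown was the higher for Gsr (−1.37 ± 0.08, adjusted p = 2.22e-26), Gclm (−1.05 ± 0.09, adjusted p = 7.08e-19), Txnrd1 (−0.52 ± 0.05, adjusted p = 2.82e-14) and Nqo1 (−0.67 ± 0.19, adjusted p = 0.00195). Of these, only Txnrd1 was called higher with SSTC3, while Gsr was lower and Gclm and Nqo1 did not pass. Slc7a11 differed narrowly (0.39 ± 0.16, adjusted p = 0.0409), a call that ended with library totals as the scaling (0.34, adjusted p = 0.0783). For Gclc no difference was found (0.07 ± 0.08, adjusted p = 0.522).

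Overexpression differed from knockdown for 8 of the 10 genes, where 35.1% of genes did, all but Hmox1 (−0.03 ± 0.07, adjusted p = 0.788) and Slc7a11 (−0.34 ± 0.16, adjusted p = 0.0909). The widest of these gaps were in Gsr (−1.01 ± 0.09, adjusted p = 3.75e-18) and Nqo1 (−0.98 ± 0.18, adjusted p = 2.63e-06), where the change with knockdown was the higher. SSTC3 differed from overexpression for 7, where 32.7% of genes did, with Srxn1 (1.74 ± 0.09, adjusted p = 3.18e-31), Hmox1 (1.67 ± 0.07, adjusted p = 3.63e-37) and Keap1 (−1.09 ± 0.11, adjusted p = 9.18e-15) the furthest apart. Nfe2l2 (0.02 ± 0.08, adjusted p = 0.909), Nqo1 (0.31 ± 0.16, adjusted p = 0.123) and Gclm (−0.19 ± 0.09, adjusted p = 0.115) did not pass there, and Gclm differed with library totals (−0.25, adjusted p = 0.027).

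Levels across the 6 groups differed between the sets of cells as well as within them. Srxn1 was lowest with DMSO, at 28.1 ± 1.87 CPM (SD, n = 2), then 39.2 ± 1.07 in OE_control, 44.0 ± 1.65 in CK1a_OE, 100.4 ± 1.42 with SSTC3, 217 ± 6.07 in KD_control and 335 ± 6.44 CPM in CK1a_KD, with no overlap between neighbours in this order. Its control level in the knockdown set was thus above the level that SSTC3 gave in the other cells. Hmox1 ran from 51.5 ± 0.0524 CPM with DMSO to 226 ± 1.91 CPM in CK1a_OE, and even with SSTC3 (177.8 ± 0.837 CPM) it stayed below OE_control (199 ± 9.86 CPM). Nqo1 was highest in the overexpression set, at 32.5 ± 0.699 CPM in OE_control, and lowest in KD_control, at 6.22 ± 0.628 CPM. For Nqo1 only the neighbours DMSO and SSTC3 overlapped, and for Nfe2l2 only SSTC3 and DMSO, its 2 lowest groups. Gclc, by contrast, kept within 64.8 ± 0.898 CPM (OE_control) and 104 ± 1.46 CPM (SSTC3), where SSTC3 overlapped CK1a_KD, DMSO overlapped KD_control, and CK1a_OE overlapped OE_control. Gclm fell into a high trio of DMSO, CK1a_KD and SSTC3, whose neighbours overlapped, and a low trio of KD_control, CK1a_OE and OE_control. No test was made of levels between sets. The overexpression set lists 55401 features and the other sets 54532, so the gene models counted may also differ, and their part was not tested.

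Scaled for length as well (RPKM, the CPM value per kilobase of annotated exon), the order of the 10 genes changed with the set. Srxn1 ranked first in KD_control (77.0 ± 2.15 RPKM, SD) and CK1a_KD (119 ± 2.28 RPKM), but had rank 9 with DMSO (9.95 ± 0.664 RPKM) and rank 4 with SSTC3 (35.6 ± 0.504 RPKM). Hmox1 ranked first in OE_control (113 ± 5.63 RPKM), CK1a_OE (129 ± 1.09 RPKM) and with SSTC3 (102 ± 0.478 RPKM), and had rank 3 with DMSO (29.4 ± 0.0299 RPKM). Txnrd1, between 44.8 ± 0.304 RPKM with DMSO and 80.8 ± 0.963 RPKM in CK1a_KD, had rank 2 or 3 in all groups. Slc7a11 was last in all of them, from 0.678 ± 0.0241 RPKM with DMSO to 2.98 ± 0.219 RPKM in CK1a_KD. Its annotated exons sum to 13922 bases, which lowers its RPKM where shorter transcripts are used.

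**Figure D3:**
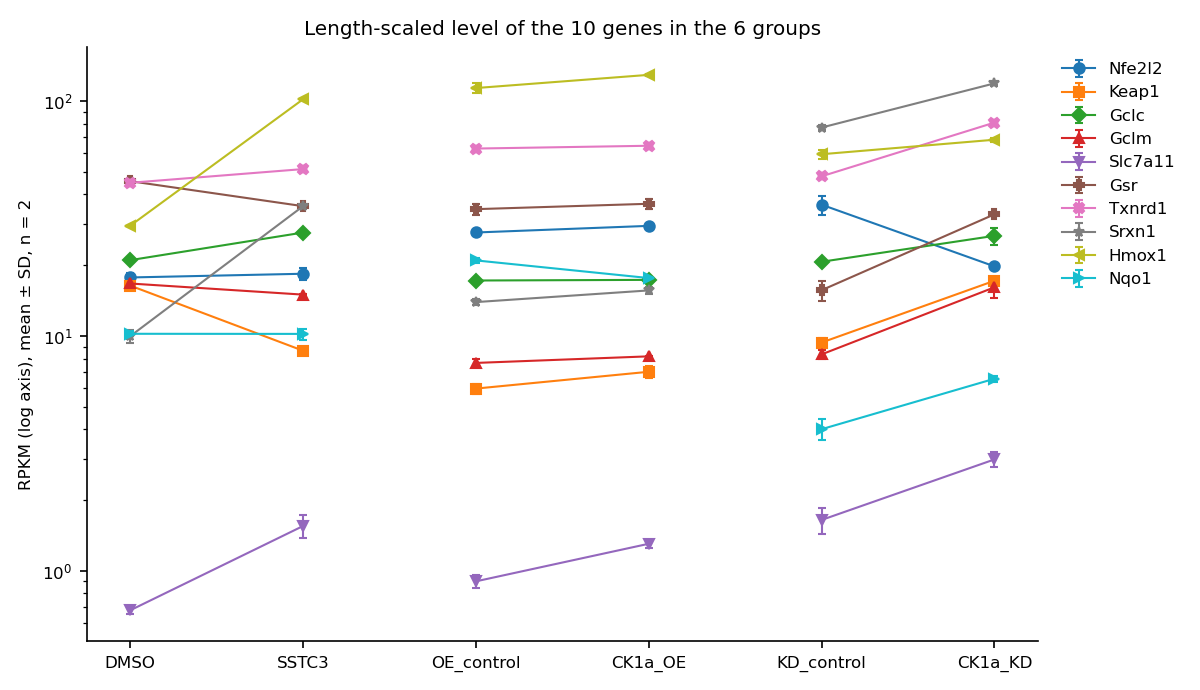
Mean RPKM (log axis) of the 10 genes in the 6 groups, with error bars of 1 SD over 2 libraries and lines joining each control with its treated group. Srxn1 goes from rank 9 to rank 4 and Hmox1 from rank 3 to rank 1 between DMSO and SSTC3, whereas from KD_control to CK1a_KD 9 lines climb and that of Nfe2l2 descends.

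The other genes of the pathway were read from 8 lists, beside the shares of all genes given above. With knockdown these shares were 28.3% higher and 26.4% lower, and with SSTC3 27.1% higher and 26.5% lower. Among the partners and regulators of NRF2, Maff rose with SSTC3 and fell with knockdown. With SSTC3 7 of 18 rose and 7 fell, and the small Maf genes led: Maff, a partner of NRF2 on antioxidant response elements, was 149 ± 2.95 against 5.49 ± 0.715 CPM (SD, n = 2 per group, log2 fold change 4.81 ± 0.09, SE, adjusted p = 6.46e-142) and Mafk changed by 2.08 ± 0.07 (adjusted p = 6.99e-84). Sqstm1, the autophagy receptor that can sequester KEAP1, rose by 0.73 ± 0.04 (adjusted p = 4.64e-49). With knockdown 4 of 17 rose and 7 fell. Maff was 56.3 ± 3.31 against 151 ± 0.0502 CPM (−1.39 ± 0.06, adjusted p = 2.69e-30), Bach1, the competing repressor, was 45.2 against 108 CPM (−1.23 ± 0.07, adjusted p = 2.90e-24), and Cand1, an exchange factor of cullin ligases, rose by 0.88 ± 0.05 (adjusted p = 1.10e-22).

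Enzymes that supply NADPH, on which glutathione reductase and thioredoxin reductase depend, rose in 8 of 15 cases with knockdown and fell in 4. Pgd, of the pentose phosphate pathway, was 284 ± 8.93 against 170.1 ± 2.41 CPM (0.77 ± 0.05, adjusted p = 9.85e-23), and Tkt (0.73 ± 0.05) and Me1 (0.77 ± 0.06) rose likewise. With SSTC3 1 of 14 rose and 4 fell, among them G6pdx, the entry enzyme of that pathway (−0.56 ± 0.05, adjusted p = 8.11e-20), and Pgd (−0.32 ± 0.05, adjusted p = 6.58e-10). Glutathione transferases, which couple glutathione to electrophiles, rose in 10 of 19 cases and fell in 4 with knockdown, such as Gsta4 at 83.7 ± 0.615 against 46.7 ± 2.55 CPM (0.88 ± 0.07, adjusted p = 1.57e-17) and Gstm1 (0.53 ± 0.04, adjusted p = 3.78e-17). With SSTC3 1 of 16 rose and 3 fell, Gstm1 (−0.26 ± 0.07) and Gsta4 (−0.29 ± 0.08) among the latter. Some members of this family are near copies of each other, so the split of reads between those members is uncertain.

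Of the genes for glutathione synthesis, peroxidases and glutaredoxins outside the panel, 1 of 18 rose and 8 fell with knockdown. Slc3a2, the chain that carries Slc7a11 to the membrane, fell (−0.51 ± 0.04, adjusted p = 2.57e-17) while Slc7a11 rose, and Chac1, which degrades glutathione, fell from 37.8 ± 5.10 to 5.11 ± 1.92 CPM (−2.85 ± 0.16, adjusted p = 8.71e-13). Both rose with SSTC3, where 5 of 15 rose and 1 fell: Chac1 by 2.38 ± 0.08 (adjusted p = 1.30e-88) and Slc3a2 by 1.18 ± 0.04 (adjusted p = 6.79e-88). For thioredoxins, peroxiredoxins and sestrins, 6 of 17 rose and 6 fell with knockdown, where 28.3% of all genes rose and 26.4% fell. With SSTC3 8 of 18 rose and 2 fell, where 27.1% of all genes rose and 26.5% fell. Txnip, the inhibitor of thioredoxin, fell with knockdown (−1.11 ± 0.04, adjusted p = 3.31e-32) and rose with SSTC3 (4.19 ± 0.07, adjusted p = 5.33e-130), whereas Txn1, thioredoxin itself, rose in both (0.54 ± 0.05 and 0.21 ± 0.04).

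Detoxification enzymes rose in 9 of 27 cases with knockdown, near the 28.3% of all genes, and fell in 2. Among the risers were Esd, S-formylglutathione hydrolase (0.85 ± 0.04, adjusted p = 1.49e-25), Ephx1 (0.68 ± 0.05) and Ptgr1 (0.87 ± 0.07). With SSTC3 6 of 22 rose, near the 27.1% of all genes, and 3 fell, among the risers Aox1 (3.07 ± 0.34), Osgin1 (1.08 ± 0.14) and Ugdh (0.35 ± 0.04). Among haem and iron genes, 8 of 14 rose and 3 fell with knockdown, Ncoa4, the receptor for ferritin breakdown, among the latter (−0.83 ± 0.05). With SSTC3 4 of 15 rose, near the 27.1% of all genes, and 6 fell, where 26.5% of all genes did. Fth1, the ferritin heavy chain, was 1251 against 957 CPM (0.44 ± 0.03). Oxidant enzymes and metallothioneins rose in 5 of 10 cases and fell in 3 with knockdown, and rose in 5 of 8 and fell in 1 with SSTC3. Xdh, xanthine dehydrogenase, was 372 ± 4.91 against 187 ± 10.7 CPM with knockdown (1.03 ± 0.05, adjusted p = 4.55e-29), and the metallothionein Mt1 was 356 ± 4.99 against 124 ± 3.12 CPM with SSTC3 (1.58 ± 0.04, adjusted p = 1.46e-101).

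**Figure D4:**
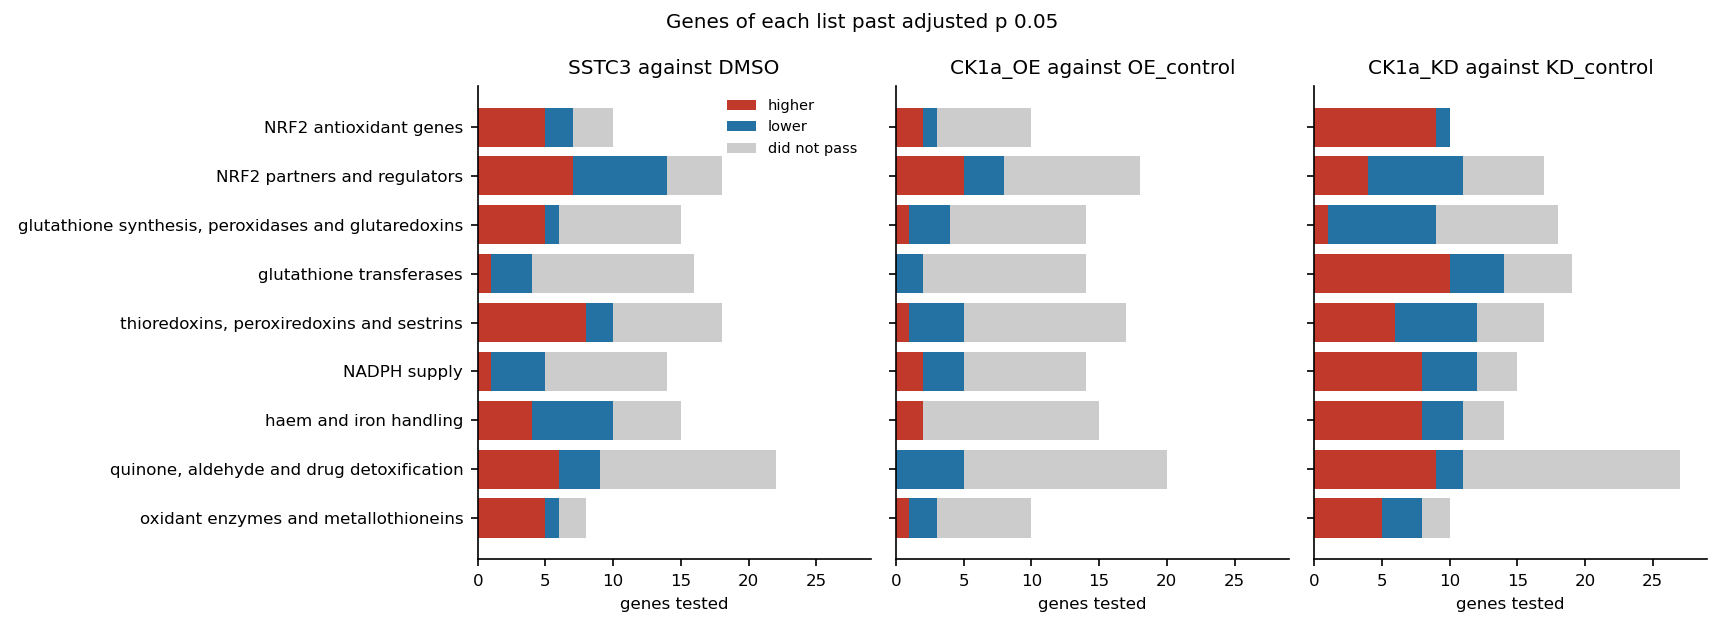
Number of genes tested in each list that were higher (red), lower (blue) or did not pass (grey) at an adjusted p under 0.05, in the 3 comparisons. The panel has the largest red share of the 9 lists with knockdown (9 of 10), and grey bars fill most of the overexpression column. The lists were chosen with earlier results of these data known.

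In the comparison labelled overexpression, the same 8 lists had from 2 to 8 members past the threshold each. Of all genes tested, 13.3% passed there, 5.78% higher and 7.57% lower. Regulators had 5 of 18 higher and 3 lower, Sqstm1 (0.22 ± 0.03, adjusted p = 7.48e-08), Maff (0.29 ± 0.05, adjusted p = 4.89e-05) and Nfe2l1 (0.14 ± 0.03, adjusted p = 0.00226) among the former. Txnip (−0.33 ± 0.03, adjusted p = 8.46e-11), Gsto1 (−0.27 ± 0.04, adjusted p = 6.55e-06) and the carbonyl reductase Cbr2 (−0.47 ± 0.07, adjusted p = 4.73e-06) were lower. Detoxification enzymes fell in 5 of 20 cases and rose in 0 by edgeR. At an unadjusted p under 0.05, 9 were lower and 1 higher, but the share of all genes at that threshold was not computed, so nothing is read from these counts.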

How the data were processed

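Poly(A) RNA libraries of 12 mouse samples were sequenced on an Illumina HiSeq instrument, per the labels' protocols. Per the submitters' processing notes, HISAT2, featureCounts and the mm10 build were used, and the authors deposited raw counts per gene. The strand setting is not given in the sources used here (nor are versions or the annotation), so reads of overlapping antisense genes cannot be separated. Symbols, positions and exon lengths came from GENCODE M21 (mm10). Nnt matched more than 1 ID, and the lower was used.

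Each comparison was fitted over all genes of its 4 libraries in edgeR 4.0.16 (quasi-likelihood F test, R 4.3.3), after filterByExpr and TMM scaling, with Benjamini-Hochberg adjustment over all genes tested and a threshold of 0.05. Standard errors (SE) are the absolute log2 fold change divided by the square root of F. Differences between comparisons were contrasts in 1 fit of all 12 libraries. CPM and RPKM use library totals. The fits were also tried on simulated data, but the outcome is not given here and nothing is drawn from it. Replicate pairs differed by more than sampling noise (chi-square per degree of freedom 2.29 to 3.61).

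The members, the 8 pathway lists and the motifs were chosen with earlier results of these data known. All 10 members are named, and up to 3 called genes per list and comparison with the smallest adjusted p. Alternatives were DESeq2 1.42.0, limma-voom (limma 3.58.1), RLE factors or library totals in place of TMM, a filter of 1 CPM in 2 libraries or none, a joint fit of the 12 libraries, the replicate number as a block, and leaving out each library.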

Additional observations from a re-analysis of the deposited data

How the results depend on the processing

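Over the 3 comparisons and 12 alternatives each, the 10 genes gave 360 fold changes, of which 343 kept their direction and side of the threshold, 10 lost their call and 2 gained one. The other 5 changed sign near zero without passing in either fit: Nqo1 with SSTC3 (−0.001243 with library totals, −0.004245 without SSTC3 replicate 1, and −0.004245 to 0.105 over the libraries left out) and Gclc with overexpression (0.008725 with library totals, 0.0009845 without a filter, 0.0109 without OE_control replicate 1, and −0.01656 to 0.0109 over the libraries left out). So did the SSTC3 minus overexpression difference of Nfe2l2 (−0.03993 with library totals, −0.002582 with RLE factors). With knockdown 9 members were higher and 1 lower under all 12 alternatives, and with SSTC3 5 were higher under all 12 and 2 or 3 lower. The overexpression counts moved. Its 1863 called genes became 1188 in the joint fit of 12 libraries, 545 with DESeq2, and 1065 to 1478 when 1 library was left out, at 1065 lacking OE_control replicate 1 and 1220 lacking replicate 2 of that group. The 2 higher members became 1 with DESeq2 and 1 to 2 with 1 library left out. The 1 lower member, Nqo1, became 0 with library totals, without a filter and with all 12 libraries in edgeR, 0 with DESeq2, and 0 whenever 1 library was left out, though 1 was lower at an unadjusted p under 0.05 in each of these fits and 1 with limma-voom adjusted. A fit that leaves a group with 1 library assumes that it varies like the others. Replicate numbers are shared only as numbers: same-numbered deviations correlated by −0.0156, −0.0096 and 0.00504, and the replicate block gave 7303, 1768 and 8066 calls for SSTC3, overexpression and knockdown and changed no member's call. Depth limits Nqo1 and Slc7a11 most, at 103 to 568 and 155 to 847 counts.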

Other observations

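Several pathway genes moved in opposite directions with SSTC3 and with knockdown, and the difference itself passed in the fit of all 12 libraries. The SSTC3 change minus the knockdown change was 6.23 ± 0.10 (log2, SE) for Maff (adjusted p = 3.43e-69), 5.33 ± 0.08 for Txnip (adjusted p = 2.19e-61), 5.26 ± 0.16 for Chac1 (adjusted p = 1.35e-33) and 3.38 ± 0.08 for the stress-inducible sestrin Sesn2 (adjusted p = 3.41e-55). Bach1, the repressor that competes with NRF2, differed by 2.34 ± 0.09 (adjusted p = 1.42e-38). In the other direction stood the NADPH enzymes G6pdx (−1.33 ± 0.08, adjusted p = 2.56e-27) and Pgd (−1.06 ± 0.06, adjusted p = 2.03e-27) and the transferase Gsta4 (−1.14 ± 0.10, adjusted p = 4.87e-17). These 8 genes were chosen after their values were seen. The cell sets differ as well as the treatments, so the 2 cannot be told apart.

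The baseline of some pathway genes differed widely between the sets labelled MEF. Xdh was 187 ± 10.7 CPM in KD_control and 16.4 ± 0.289 CPM in OE_control (SD, n = 2), Gstm1 was 366 ± 8.86 and 17.1 ± 1.02 CPM, and Mt1 was 2015 ± 71.8 and 126 ± 2.201 CPM. These genes were also chosen after their values were seen, and no test was made across sets. The knockdown set lists 54532 features and the overexpression set 55401, so the gene models counted may differ as well as the cells.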
